A study of Homo sapiens with 8 samples.

Results

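The immune checkpoint ligands examined here are 9 cell-surface or secreted proteins that tumour cells or antigen-presenting cells show to T cells, natural killer cells or macrophages. They were taken as the listed genes CD274, PDCD1LG2, CD276, VTCN1, LGALS9, PVR, CD47, CD80 and CD86 among the 35238 gene symbols of the count table. No threshold on their values was applied, though the list was chosen with earlier results of these data known. All 9 were in the table, and 6 of them (CD274, PDCD1LG2, CD276, LGALS9, PVR and CD47) had enough counts to be tested together with 15085 genes in all. VTCN1, CD80 and CD86 were too sparse for the test and are given as counts.

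The mRNA of MP38, a uveal melanoma cell line that carries a BAP1 mutation, was sequenced after 24 h of treatment. Control wells received 0.1% DMSO, the solvent that all groups shared. The other wells received 40 nM romidepsin or 40 nM quisinostat, which inhibit histone deacetylases (HDACs), or 1200 nM mivebresib, which inhibits the bromodomain and extra-terminal (BET) proteins. Separate wells of this line gave 2 libraries to each of the 4 groups, so the p-values measure the spread between wells and not between cell lines or tumours. The study asked how the HDAC and BET inhibitors change transcription in uveal melanoma cells. No immune cells were added to the wells.

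Checkpoint ligands restrain immune cells by engaging inhibitory receptors. CD274 (PD-L1) and PDCD1LG2 (PD-L2) bind PD-1 on T cells, and CD80 and CD86 bind both the activating receptor CD28 and the inhibitory receptor CTLA-4. CD276 (B7-H3) and VTCN1 (B7-H4) belong to the same B7 family, LGALS9 (galectin-9) binds TIM-3, PVR (CD155) binds TIGIT, CD96 and the activating receptor CD226, and CD47 binds SIRPA on macrophages and holds back phagocytosis. CD274 is known for its induction by interferon gamma, which acts through JAK kinases and the transcription factor IRF1. HDAC inhibitors raise histone acetylation, and BET inhibitors keep BET proteins from binding acetylated histones.

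CD274 and PDCD1LG2 are neighbours. In GENCODE 29 on GRCh38, CD274 (ENSG00000120217) lies at chr9:5450503-5470566 and PDCD1LG2 (ENSG00000197646) at chr9:5510570-5571254, both on the plus strand and 40003 bases apart. CD276 (ENSG00000103855) lies at chr15:73683966-73714518 on the plus strand, PVR (ENSG00000073008) at chr19:44643798-44663583 on the plus strand, and CD47 (ENSG00000196776) at chr3:108043094-108091862 on the minus strand. LGALS9 (ENSG00000168961) lies at chr17:27629798-27649560 on the plus strand and VTCN1 (ENSG00000134258) at chr1:117143587-117210960 on the minus strand. CD80 (ENSG00000121594, chr3:119524293-119559602, minus strand) and CD86 (ENSG00000114013, chr3:122055366-122121139, plus strand) lie on the same chromosome as CD47.

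RefSeq sequence before the start site (GRCh38.p14, 250 bases) was at hand for 8 of the 9 ligands, all but PDCD1LG2, with 2 start sites each for CD276 and CD86. The sequences before CD274 and CD47 are shown because these ligands rose with quisinostat 8.73-fold and 1.44-fold and because their start regions differ in composition. CD274 is given at chr9:5450292-5450502 on the plus strand, which stops before its first GENCODE exon. CD47 is given at chr3:108091032-108091281 on the minus strand. That stretch holds no GENCODE exon of CD47 but lies inside the GENCODE span of the gene, so it precedes the RefSeq start and not the GENCODE one. Capitals mark matches on either strand to GAAA, any 2 bases and GAAA (bound by interferon regulatory factors), to TTC, any 3 bases and GAA (the gamma-activated site bound by STAT proteins) and to the GC box GGGCGG.
CD274: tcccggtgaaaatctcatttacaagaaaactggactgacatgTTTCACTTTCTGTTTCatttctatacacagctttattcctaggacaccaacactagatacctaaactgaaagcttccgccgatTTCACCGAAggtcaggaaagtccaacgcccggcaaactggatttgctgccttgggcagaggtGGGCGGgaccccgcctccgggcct
CD47: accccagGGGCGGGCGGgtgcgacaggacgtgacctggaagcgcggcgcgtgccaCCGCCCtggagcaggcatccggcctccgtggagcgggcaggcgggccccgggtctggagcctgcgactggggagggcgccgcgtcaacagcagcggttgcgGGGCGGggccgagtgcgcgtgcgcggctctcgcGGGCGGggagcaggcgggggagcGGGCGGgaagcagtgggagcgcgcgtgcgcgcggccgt
The first run of capitals before CD274 is a pair of overlapping interferon regulatory factor matches that begin 208 and 202 bases before the RefSeq start. The gamma-activated site match begins 125 bases before it and the GC box 63 bases before it. Over the full 250 bases, CD274 had 16 CpG dinucleotides, more than 59% of 35114 promoters, and 54.8% G or C, where the medians were 11 and 58%. CD47 had 39 CpG, more than 97.3% of promoters, with 79.6% G or C and 6 GC boxes, of which the first and second overlap. Among the 8 ligands, CD274 alone held a match to either of the interferon-related patterns, which occur in 3.02% and 6.57% of all promoters. The GC box occurs in 42.6% of all promoters, and the E-box CACGTG, present in 6.35% of them, was found before none of the 8 ligands. A match is a string of letters and was not shown to be a bound site.

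The 8 libraries had 28483235 to 29359024 counts each. Levels are given as CPM, counts per fixed library total, scaled by edgeR's trimmed mean of M-values (TMM), so each is relative to the other mRNA in its library. With library size alone, the median gene moved by 0.2 (log2) under quisinostat, by 0.06 under romidepsin and by 0.03 under mivebresib. The 2 control libraries stood further apart than any drug pair, with a chi-square of 58.1 per degree of freedom against 9.52 to 9.79. The fit gave each gene 1 spread shared by the 4 groups. Its p-values may thus be too small against control and too large between drugs. Changes of the 6 tested ligands that rest on either control library are therefore given without it too. Single genes of the other lists and the median log2 fold changes are given from all 8 libraries alone, so they were not checked in this way. Markers checked the label. Of 8 melanocyte markers, 7 were tested and their summed level was 3561 to 5451 CPM in every library, mostly TYRP1, while DCT had at most 5 counts. With romidepsin 1 of the 7 fell, with quisinostat 3 (MITF, SOX10 and MLANA) and with mivebresib 4 (these and PMEL), and 0 rose. These falls were 14.3%, 42.9% and 57.1% of the 7, where 15.8%, 25.1% and 24.1% of all tested genes fell. MITF, a master regulator of melanocytes, went from 350 CPM in control cells to 133 with quisinostat and 126.4 with mivebresib, SOX10 from 209.1 to 110.1 and 54.98, and MLANA from 205.8 to 99.5 and 81.8. Their part in the ligand results was not tested. Of 14 immune cell markers the T cell genes CD3D, CD3E and CD2 had 0 counts in all 8 libraries, and the sum of the 14, at 62.8 to 84.5 CPM, was almost all CD68, a lysosomal gene not confined to macrophages.

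Per kilobase of exon, PVR and CD276 were the most abundant of these ligands in control cells. PVR stood at 21.3 ± 4.75 CPM per kb (SD, n = 2), with 17.9 and 24.6 in the 2 libraries. CD276 followed at 13.5 ± 3.32, with 11.1 and 15.8, and did not overlap PVR on this scale. Before division by length they did overlap, at 63.0 and 86.7 CPM for PVR and 61.7 and 87.7 for CD276. The lengths join all annotated exons, 3519 bases for PVR and 5542 for CD276, so the order of PVR and CD276 rests on them. CD47 stood at 6.2 ± 0.985 (5.51 and 6.9) and overlapped PDCD1LG2 at 4.75 ± 1.36 (3.79 and 5.71), so the order of these neighbours was not resolved. CD274 was far lower at 0.157 CPM per kb and LGALS9 lower still at 0.0472. VTCN1 stood at 0.0181, and CD80 and CD86 were at 0 counts in both control libraries.

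**Figure D1:**
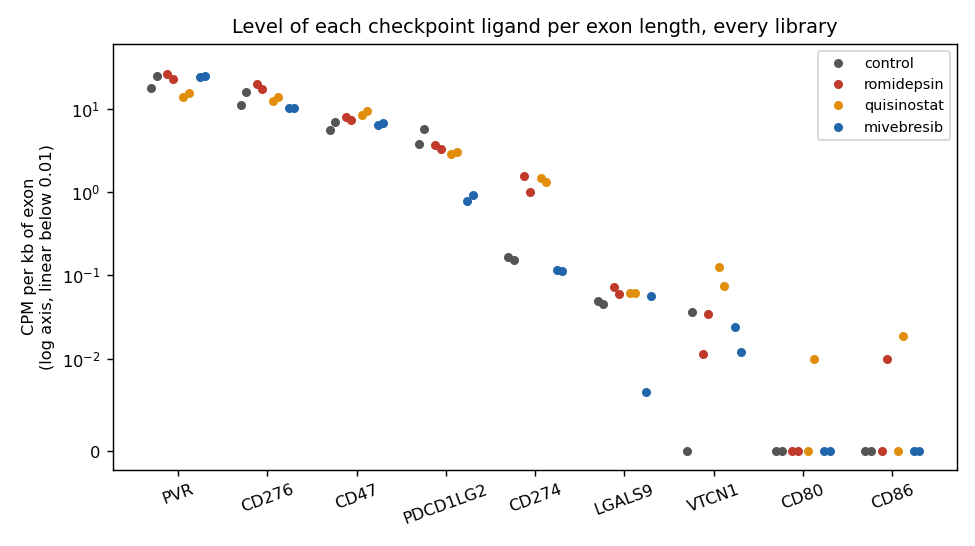
Level of each of the 9 checkpoint ligands in each of the 8 libraries, in CPM per kilobase of exon on a log axis that is linear below 0.01; points are libraries, coloured by group. PVR and CD276 sit highest in control cells, CD274 sits at 0.157 in control cells and at 1.28 and 1.38 with the HDAC inhibitors, and CD80 and CD86 lie at or near 0 throughout.

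CD274, the ligand of PD-1, rose with both HDAC inhibitors. The control libraries held 19 and 17 counts (0.673 and 0.621 CPM), the romidepsin libraries 186 and 121 (6.39 and 4.17 CPM), the quisinostat libraries 189 and 169 (5.98 and 5.38 CPM), and the mivebresib libraries 13 in each (0.475 and 0.467 CPM). All 4 HDAC inhibitor libraries lay above all 4 others. The log2 fold change was 3.02 with romidepsin (SE 0.27, 95% interval 2.4 to 3.64, adjusted p = 0.000171 by edgeR) and 3.13 with quisinostat (SE 0.27, 2.51 to 3.74, adjusted p = 3.32e-05), which are 8.11-fold and 8.73-fold rises. With mivebresib the difference from control was -0.45 (SE 0.39, -1.34 to 0.43, adjusted p = 0.368), so a change in either direction was not detectable at 26 counts against 36. Per kilobase of exon CD274 reached 1.28 ± 0.382 CPM with romidepsin and 1.38 ± 0.103 with quisinostat, which stayed below PDCD1LG2 at 3.45 and 2.93 in the same groups. Both rises stayed past the threshold in each of the 17 alternative fits that included CD274.

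PDCD1LG2, the other PD-1 ligand, fell with mivebresib and, less firmly, with quisinostat. Its counts were 253 and 370 in control cells (8.96 and 13.5 CPM), 251 and 224 with romidepsin (8.62 and 7.71 CPM), 213 and 224 with quisinostat (6.74 and 7.13 CPM), and 51 and 61 with mivebresib (1.86 and 2.19 CPM). Both mivebresib libraries lay below the other 6, and all drug libraries lay below both control libraries. The fall with mivebresib was 2.47 on the log2 scale (log2 fold change -2.47, SE 0.22, -2.97 to -1.96, adjusted p = 5.54e-05), so control cells held 5.52 times the level of mivebresib cells. It passed in all 18 alternative fits, with values from -2.71 to -1.96. With quisinostat the log2 fold change was -0.69 (SE 0.19, -1.13 to -0.26, adjusted p = 0.014), a fall that passed in 14 of 18 alternative fits. This fall missed the threshold without control replicate 2 (-0.37), without quisinostat replicate 1 (-0.67), on the log CPM table and with library size alone (-0.49, adjusted p = 0.0532). With romidepsin the log2 fold change was -0.46 (adjusted p = 0.0966), and it passed in 2 of 18 alternative fits. It was -0.70 without control replicate 1, where it passed, and -0.13 without control replicate 2. Of these neighbours, CD274 passed the test with both HDAC inhibitors and PDCD1LG2 with quisinostat and mivebresib. Whether the changes of CD274 and PDCD1LG2 differed within a drug was not tested.

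**Figure D2:**
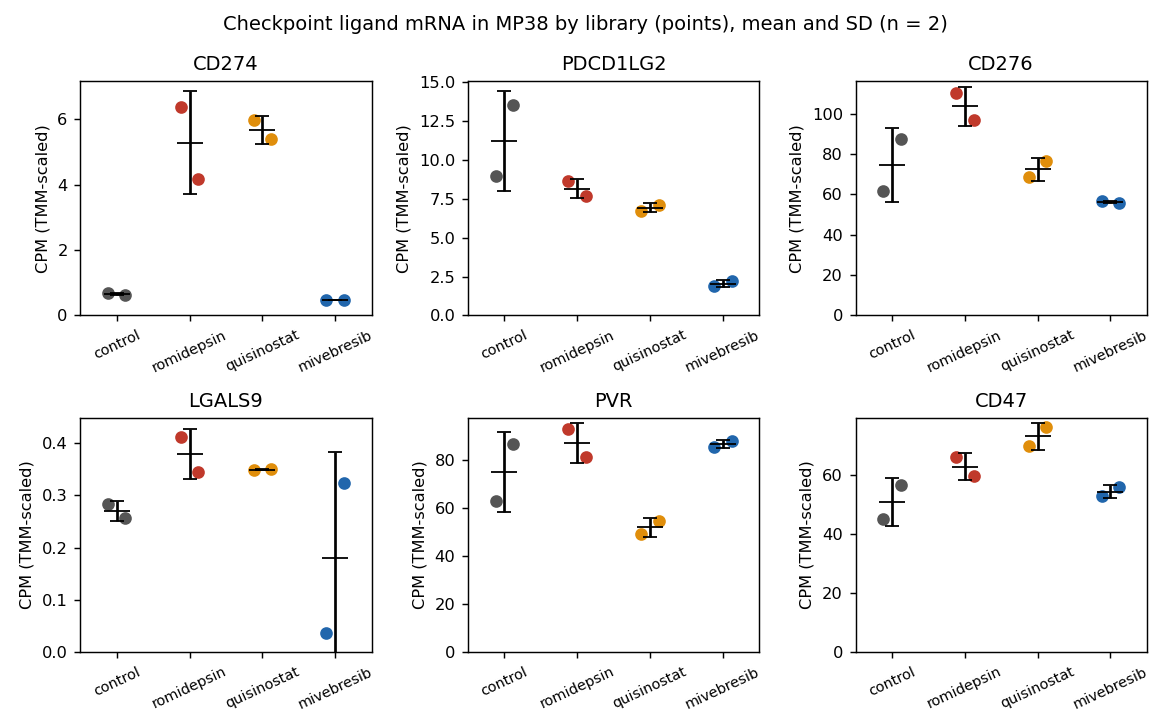
TMM-scaled CPM of the 6 tested checkpoint ligands in each library (points) with the mean and SD of each group (n = 2), on linear axes that start at 0. CD274 is at 4.17 to 6.39 CPM in the 4 HDAC inhibitor libraries and below 0.7 elsewhere, and PDCD1LG2 falls to 1.86 and 2.19 CPM with mivebresib.

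CD276, the B7 family member with the highest level here, was higher with romidepsin. It had 61.7 and 87.7 CPM in control cells, 110.5 and 96.7 with romidepsin, 68.5 and 76.6 with quisinostat, and 56.8 and 55.9 with mivebresib. Both romidepsin libraries lay above the other 6, by a margin smaller than the gap between the control libraries. The log2 fold change with romidepsin was 0.47 (SE 0.15, 0.12 to 0.82, adjusted p = 0.0468). This rise passed in 9 of 18 alternative fits, with values from 0.26 to 0.75 and adjusted p up to 0.241. It missed the threshold without any one of 7 libraries, for example at 0.26 (adjusted p = 0.0843) without control replicate 1, and passed without control replicate 2. With quisinostat the value was -0.04 (adjusted p = 0.842), and the control libraries decided its sign: it was a fall of 0.29 (log2 fold change -0.29, adjusted p = 0.0358) without control replicate 1 and 0.24 (adjusted p = 0.0756) without control replicate 2. With mivebresib it was -0.41 (adjusted p = 0.0607), and it passed in 3 of 18 alternative fits. It passed as -0.62 without control replicate 1 but was -0.13 without control replicate 2.

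VTCN1, a B7 family member of epithelial tissues, was close to absent. Its counts were 0 and 3 in control cells, 1 and 3 with romidepsin, 12 and 7 with quisinostat, and 2 and 1 with mivebresib. The 19 counts with quisinostat stood against 3 in the controls, a ratio of 5.59 with an exact counting interval of 1.65 to 29.5. Interval and ratio cover counting error only and leave out the spread between wells. CD80 had a single count in the whole data set, in a quisinostat library, and CD86 had 1 count in a romidepsin library and 2 in a quisinostat library. A count of 0 over a group allows up to 3 counts, so these CD28 and CTLA-4 ligands were not detectable at this depth in control or mivebresib cells. CD80 also overlaps exons of TIMMDC1 on the other strand, which had 757 to 980 counts.

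LGALS9, the galectin that binds TIM-3, had 8 and 7 counts in control cells, 12 and 10 with romidepsin, 11 and 11 with quisinostat, and 1 and 9 with mivebresib. All its log2 fold changes against control missed the threshold, at 0.48 for romidepsin (adjusted p = 0.582), 0.37 for quisinostat (adjusted p = 0.641) and -0.56 for mivebresib (adjusted p = 0.55). The mivebresib libraries were 0.0366 and 0.324 CPM, so the lower library decided that value: it was -2.75 (adjusted p = 0.0421) without mivebresib replicate 2 and 0.26 without mivebresib replicate 1. Of the 31-base stretches in its transcripts, 16.6% also occur in the near-copies LGALS9B or LGALS9C, so reads could be split among them. Exons of LGALS9 also overlap those of AC015688.4, a protein-coding gene on the same strand whose symbol is not in the count table. LGALS9C had 6 and 7 counts in control cells, 16 and 14 with romidepsin, 4 and 1 with quisinostat and 0 in both mivebresib libraries.

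PVR, the ligand of TIGIT and CD226, fell with quisinostat. It had 63.0 and 86.7 CPM in control cells, 92.7 and 81.0 with romidepsin, 49.0 and 54.7 with quisinostat, and 85.2 and 87.8 with mivebresib. The quisinostat libraries were the lowest of the 8, while the other drug groups overlapped the upper control library. The log2 fold change with quisinostat was -0.53 (SE 0.15, adjusted p = 0.0147). It passed in 14 of 18 alternative fits and missed the threshold at -0.33 (adjusted p = 0.0834) with library size alone, at -0.31 (adjusted p = 0.0939) on the log CPM table, at -0.53 (adjusted p = 0.0515) with just the control and quisinostat libraries, and at -0.47 (adjusted p = 0.081) without quisinostat replicate 1. It was -0.76 (adjusted p = 0.00013) without control replicate 1 and -0.28 (adjusted p = 0.0374) without control replicate 2. The values of 0.22 with romidepsin (adjusted p = 0.287) and 0.21 with mivebresib (adjusted p = 0.268) did not pass, but each became 0.46 and passed when control replicate 2 was left out (adjusted p = 0.00493 and 0.0039), and they were 0.03 and 0.02 without control replicate 1. PVR shares exon sequence on the same strand with CEACAM19, which had 17 to 72 counts. AC243964.2 and MIR4531 lie over PVR on the other strand without touching its exons, and neither symbol is in the count table.

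CD47, the signal that restrains macrophages, rose modestly with quisinostat. It had 45.3 and 56.8 CPM in control cells, 66.1 and 59.6 with romidepsin, 70.0 and 76.5 with quisinostat, and 52.8 and 56.1 with mivebresib. Both HDAC inhibitor groups lay above both control libraries, and mivebresib lay within the control range. The log2 fold change with quisinostat was 0.52 (SE 0.12, 0.26 to 0.79, adjusted p = 0.00551), a 1.44-fold rise that passed in 17 of 18 alternative fits and missed the threshold without quisinostat replicate 2 (0.42, adjusted p = 0.0545). With romidepsin it was 0.3 (adjusted p = 0.0825), and it passed in 5 of 18 alternative fits, with values from 0.17 to 0.47. It passed as 0.38 (adjusted p = 0.0383) with library size alone and as 0.47 without control replicate 2, and was 0.17 without control replicate 1. With mivebresib it was 0.09 (adjusted p = 0.546), -0.04 without control replicate 1 and 0.26 (adjusted p = 0.0452) without control replicate 2.

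Counted together, 2 of the 6 tested ligands rose with romidepsin, where 15.2% of all tested genes rose and 15.8% fell. With quisinostat 2 rose and 2 fell, where 28% of all genes rose and 25.1% fell. With mivebresib 1 fell, where 24.1% of all genes fell and 22.2% rose. The medians of the 6 log2 fold changes were 0.39, 0.16 and -0.43, against -0.01, 0 and 0.01 over all tested genes. In edgeR 0 of the 6 fell with romidepsin and 0 rose with mivebresib, and the same counts of 0 came from DESeq2 and limma-voom. At an unadjusted p below 0.05, edgeR had 1 lower with romidepsin and 0 higher with mivebresib. Beyond a log2 fold change of 1.5 stood CD274 with romidepsin and with quisinostat, which 3.77% and 11.2% of all genes passed upwards, and PDCD1LG2 with mivebresib, which 4.36% passed downwards. The member counts depended on single libraries: with romidepsin they ran from 1 to 4 when 1 library was left out, the 4 without control replicate 2 and the 1 when any single drug library was left out. With quisinostat they ran from 2, without quisinostat replicate 1, to 5, without control replicate 1, and with mivebresib from 1 to 3, the 3 without control replicate 2 and 2 without control replicate 1 or mivebresib replicate 2.

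**Figure D3:**
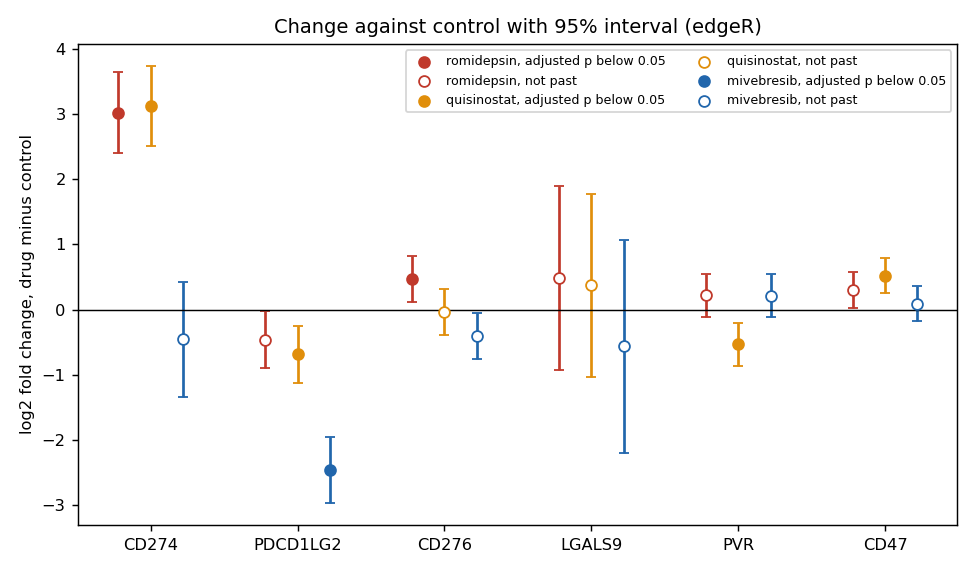
Log2 fold change of the 6 tested checkpoint ligands against control for each drug, with 95% intervals from the edgeR fit; filled points passed an adjusted p of 0.05. CD274 stands at 3.02 and 3.13 with romidepsin and quisinostat, PDCD1LG2 at -2.47 with mivebresib, and all other changes that passed were between -0.69 and 0.52.

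Romidepsin and quisinostat were given at the same nominal dose and time, and their values for each ligand were compared directly. Equal concentrations of drugs that differ in potency are not equal effective doses, so a difference between them may be one of dose, which cannot be told apart here. Romidepsin is a cyclic depsipeptide and quisinostat a hydroxamate. For the 6 ligands the adjustment of p was over all 15085 genes, of which 35.6% differed between these drugs, 14.6% being lower with quisinostat. CD274 differed by 0.11 on the log2 scale (quisinostat minus romidepsin, -0.36 to 0.57, adjusted p = 0.72), and the sign turned without romidepsin replicate 2 (-0.17). PDCD1LG2 differed by -0.24 (-0.68 to 0.2, adjusted p = 0.379) and CD47 by 0.22 (-0.04 to 0.49, adjusted p = 0.175). CD47 passed in 4 of 18 alternative fits, with values from 0.11 to 0.35, among them the fit without control replicate 2 (0.22). Control libraries enter a difference between drugs only through the shared spread and the scaling. PVR was lower with quisinostat, by -0.74 (SE 0.15, adjusted p = 0.00522), with 49.0 and 54.7 CPM against 92.7 and 81.0. CD276 was lower with quisinostat too, by -0.51 (SE 0.15, adjusted p = 0.0308), a difference that missed the threshold without any one of the 4 HDAC inhibitor libraries or either mivebresib library, with adjusted p from 0.0572 to 0.176. LGALS9 differed by -0.11 (adjusted p = 0.9).

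Mivebresib was given at another dose, so its values are set beside those of the HDAC inhibitors without ranking the drugs. CD274 was 12-fold lower with mivebresib than with quisinostat (log2 difference -3.58, SE 0.28, adjusted p = 1.79e-05) and 11.1-fold lower than with romidepsin (-3.47, SE 0.29, adjusted p = 3.24e-05). PDCD1LG2 was lower by 1.77 than with quisinostat (log2 difference -1.77, adjusted p = 0.000236) and by 2.01 than with romidepsin (-2.01, adjusted p = 0.00016). PVR was higher with mivebresib than with quisinostat (0.74, adjusted p = 0.00253) and did not separate from romidepsin (-0.01, adjusted p = 0.977). CD276 was lower with mivebresib than with romidepsin (-0.88, adjusted p = 0.00179), and against quisinostat it was at -0.36 (adjusted p = 0.0721). The difference from quisinostat passed in 8 of 18 alternative fits, with values from -0.54 to -0.23. Among these were the fits without control replicate 1 (-0.33) or control replicate 2 (-0.36). Here too the control libraries enter only through the shared spread and the scaling. CD47 was lower with mivebresib than with quisinostat (-0.43, adjusted p = 0.0126), but not without quisinostat replicate 2 (-0.32, adjusted p = 0.115) or mivebresib replicate 1 (-0.39, adjusted p = 0.082). Against romidepsin CD47 was at -0.21 (adjusted p = 0.174), and it passed in 4 of 18 alternative fits, with values from -0.28 to -0.13. Among these were the fits without control replicate 1 or control replicate 2. LGALS9 was at -0.93 against quisinostat and -1.04 against romidepsin (adjusted p = 0.263 and 0.229), and it passed both without mivebresib replicate 2 (-3.11 and -3.23, adjusted p = 0.0162 and 0.0172). Between mivebresib and quisinostat 4 of the 6 ligands differed, where 57.7% of all genes did, and between mivebresib and romidepsin 3 of the 6 did, where 48.9% of all genes did.

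Other immune-regulatory ligands were read from a list of 26 genes, of which 25 were in the table and 20 were tested. With romidepsin 6 rose and 3 fell, with quisinostat 9 rose and 5 fell, and with mivebresib 2 rose and 10 fell. With both directions pooled, these calls were 45%, 70% and 60% of the 20, where 31%, 53.2% and 46.2% of all tested genes were called. Of all tested genes, 15.2%, 28% and 22.2% rose and 15.8%, 25.1% and 24.1% fell with romidepsin, quisinostat and mivebresib. All gene lists here were chosen with earlier results of these data known, so their shares are a description and not a test. Their median log2 fold changes were 0.03, 0.18 and -0.51. The butyrophilins BTN2A2, BTN3A1 and BTN3A2, B7-like proteins that regulate T cells, rose with both HDAC inhibitors and fell with mivebresib. BTN2A2 had 358 and 482 counts in control cells, 1243 and 1042 with romidepsin, 1593 and 1758 with quisinostat, and 147 and 157 with mivebresib. Its log2 fold changes were 1.38 (adjusted p = 0.00049), 1.81 (adjusted p = 3.23e-05) and -1.46 (adjusted p = 0.000251). BTN3A3 had the deepest fall of the list with mivebresib, by 2.6 on the log2 scale (adjusted p = 8.94e-06), from 383 and 491 counts to 68 and 75. The butyrophilins are close paralogs whose reads the counting may have divided, so each of their values is uncertain.

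CEACAM1, an adhesion molecule that also binds TIM-3, had the same signs, with log2 fold changes of 1.03 (adjusted p = 0.000982), 1.15 (adjusted p = 0.000184) and -1.78 (adjusted p = 6.9e-05). CD24, the ligand of the macrophage receptor SIGLEC10, had the largest rise of the list: 173 and 121 counts in control cells became 833 and 769 with romidepsin and 3353 and 3197 with quisinostat. These were log2 fold changes of 2.38 (adjusted p = 5.35e-05) and 4.3 (adjusted p = 6.77e-07), against 0.34 (adjusted p = 0.0918) with mivebresib. TNFRSF14 (HVEM), the ligand of BTLA, fell with all 3 drugs, by 0.55, 0.89 and 2.4 on the log2 scale for romidepsin, quisinostat and mivebresib (adjusted p = 0.00203, 5.9e-05 and 1.52e-06). ICOSLG, the costimulatory ligand of ICOS, fell with romidepsin (log2 fold change -1.08, adjusted p = 0.0034) and quisinostat (-0.9, adjusted p = 0.00333) and rose with mivebresib (0.89, adjusted p = 0.00271). IGSF11, a ligand of the checkpoint protein VISTA, had 3 counts in each control library and 19 and 23 with quisinostat.

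**Figure D4:**
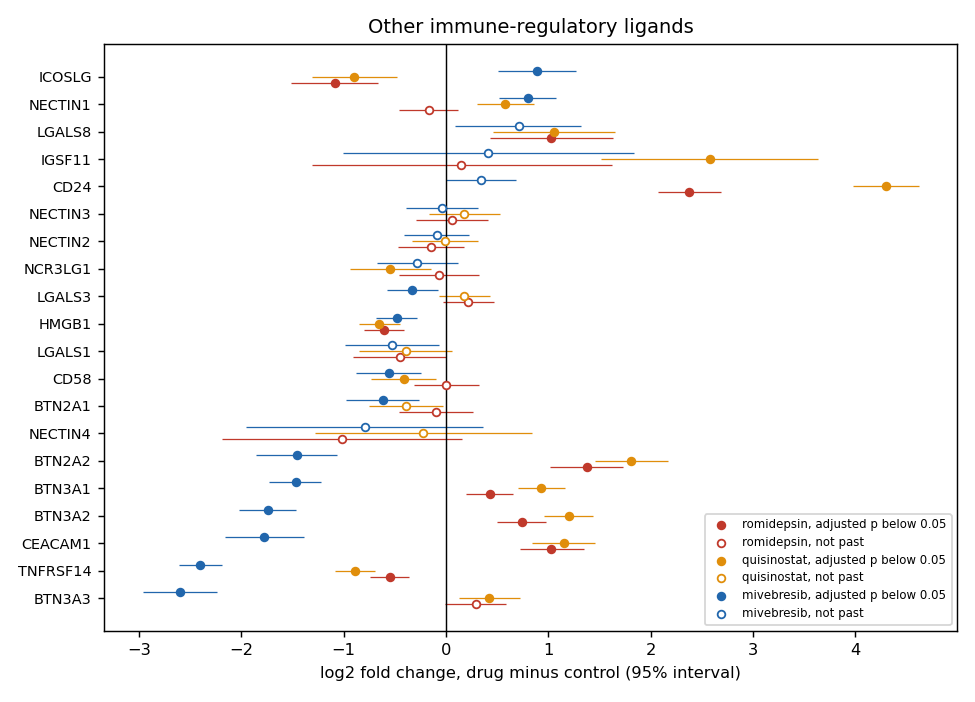
Log2 fold change against control, with 95% intervals from the edgeR fit, for the 20 tested genes of the list of other immune-regulatory ligands, ordered by their change with mivebresib; filled points passed an adjusted p of 0.05. The butyrophilins BTN2A2, BTN3A1 and BTN3A2 and CEACAM1 lie to the right of 0 with the HDAC inhibitors and to the left with mivebresib, and CD24 reaches 4.3 with quisinostat.

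Receptors of these ligands are mostly genes of immune cells, and 5 of 15 listed were tested. PDCD1 and BTLA had 0 counts in all libraries. SIRPA, the receptor of CD47, was abundant in these tumour cells, with 3737 and 4067 counts in control cells, and fell with mivebresib to 2390 and 2327 (log2 fold change -0.72, adjusted p = 0.000303). HAVCR2 (TIM-3) had 2 and 1 counts in control cells and 16 and 18 with quisinostat, where it was the only tested receptor to rise. CD160 also rose with mivebresib (1.72, adjusted p = 0.0457 in edgeR), though not in DESeq2 or limma-voom. With romidepsin 0 of the 5 passed in edgeR, DESeq2 or limma-voom, and 1 had an unadjusted p below 0.05 in edgeR. For romidepsin, quisinostat and mivebresib the edgeR calls were 0%, 20% and 40% of the 5, against 31%, 53.2% and 46.2% of all tested genes. The tested receptors other than SIRPA had few counts, so a missed call says little there. Among the immune cell markers CD163 and ITGAX rose with quisinostat, CD163 from 1 and 2 counts to 12 and 11 and ITGAX from 19 and 21 to 63 and 79, though the call of CD163 was lost in DESeq2, while CD68 did not pass (-0.16, adjusted p = 0.286). These 2 rises were 50% of the 4 tested markers, where 28% of all tested genes rose with quisinostat. The part of these markers in the ligand results was not tested either. In a bulk library, fewer cells expressing a gene and less RNA per cell cannot be told apart.

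Genes of interferon signalling, the best known route to CD274, were called about as often as all tested genes when both directions were pooled. Of 16 genes, 2 rose and 2 fell with romidepsin, 1 rose and 6 fell with quisinostat, and 4 rose and 4 fell with mivebresib, with medians of 0.04, -0.09 and 0.05. That is 25%, 43.8% and 50% of the list, against 31%, 53.2% and 46.2% of all genes. Of all genes, 15.2%, 28% and 22.2% rose and 15.8%, 25.1% and 24.1% fell with romidepsin, quisinostat and mivebresib. With quisinostat the list thus had a smaller share of rises and a larger share of falls. Its part in the CD274 result was not tested. IRF1 was at 0.04 with romidepsin (adjusted p = 0.839) and -0.07 with quisinostat (adjusted p = 0.683), and neither passed. IRF9, a transcription factor of the interferon response, fell with romidepsin (-0.76, adjusted p = 0.00901) and quisinostat (-1.02, adjusted p = 0.00103). PTPN2, a phosphatase that dampens JAK and STAT proteins, fell with both as well (-0.59, adjusted p = 0.00408, and -1.01, adjusted p = 0.00011). SOCS3, a feedback inhibitor of cytokine signalling, fell with mivebresib from 238 and 228 counts to 71 and 67 (-1.74, adjusted p = 1.97e-05), while the related SOCS1 rose from 13 and 5 counts to 47 and 53 (2.47, adjusted p = 0.00675). The interferon gamma receptor chains moved in opposite directions with mivebresib: IFNGR2 fell (-1.16, adjusted p = 0.000585) and IFNGR1 rose (0.68, adjusted p = 0.0131). The kinase JAK1 rose with mivebresib too (0.82, adjusted p = 6.77e-05).

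Of 11 other transcriptional regulators linked to these ligands, 3 rose and 4 fell with romidepsin, 8 fell with quisinostat, and 6 rose and 1 fell with mivebresib, with medians of 0, -0.4 and 0.23. With both directions pooled, the called shares were 63.6%, 72.7% and 63.6%, against 31%, 53.2% and 46.2% of all genes. Of all genes, 15.2%, 28% and 22.2% rose and 15.8%, 25.1% and 24.1% fell with romidepsin, quisinostat and mivebresib. MYC, which is known to act on CD274 and CD47, rose slightly with romidepsin (0.24, adjusted p = 0.0343), fell with quisinostat (-0.71, adjusted p = 7.39e-05) and rose with mivebresib (0.78, adjusted p = 5.63e-05). NFKB1 fell with all 3 drugs, by 0.3, 0.71 and 0.75 on the log2 scale. BRD2, a BET protein and so a target of mivebresib, fell with quisinostat (-0.68, adjusted p = 0.000167) and rose with mivebresib (1.15, adjusted p = 1.46e-05).

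A list of 18 genes that act on the proteins, by adding sugars, by sorting or degrading PD-L1, or by binding CD47, gave 3 rises and 3 falls with romidepsin, 4 and 4 with quisinostat, and 6 and 4 with mivebresib. With both directions pooled, these are 33.3%, 44.4% and 55.6% of the list, near the 31%, 53.2% and 46.2% of all genes. HIP1R, which sends PD-L1 to lysosomes, rose with all 3 drugs (1.06, 1.14 and 1.1 on the log2 scale, with adjusted p of 0.00018, 3.09e-05 and 4.89e-05). B3GNT3, which adds sugars to PD-L1, had 1 and 5 counts in control cells, 26 and 22 with romidepsin and 25 and 30 with quisinostat. THBS1, a secreted ligand of CD47, fell with mivebresib from 693 and 1013 counts to 59 and 71 (log2 fold change -3.7, adjusted p = 8.3e-06), while CD47 itself was at 0.09. Protein was not measured.

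Over the 8 libraries, the genes most alike in pattern were sought for the 3 ligands with at least 100 counts in each library, among 11797 genes with a mean log2 CPM of at least 1. By Pearson's r of log2 CPM they included GCN1 (0.997), PRRC2B (0.992) and SMG1P2 (0.991) for PVR, DNAJC10 (0.991), GPR37 (0.99) and VWA8 (0.988) for CD47, and ITGA5 (0.989) and ALDH18A1 (0.984) for CD276. With the minimum lowered to 10 counts, a choice made after seeing the data, the closest were APBB1 (0.994) for CD274 and EMP2 (0.999) for PDCD1LG2. These are the highest of many values over 8 libraries in 4 groups and describe these libraries alone.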

How the data were processed

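MP38 RNA was sequenced as strand-specific mRNA libraries with paired 150-base reads. The authors processed the reads with BioJupies and deposited counts per gene symbol without normalization, a log10 table that equals log10(CPM + 1) of those counts, and a quantile-normalized table whose scale is not named, which was not used here. The build is hg38 in the submitters' processing notes. The aligner, annotation and strand setting are not given in the sources used here, so overlapping genes are uncertain.

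Samples were grouped by their labels. The counts of all 8 libraries were tested in 1 model with edgeR 4.0.16 in R 4.3.3 (TMM, filterByExpr, quasi-likelihood test, Benjamini-Hochberg over 15085 genes, calls at an adjusted p below 0.05), with a coefficient of variation of 0.0938. Simulated counts with 200 changed genes were used to test the code. Alternatives were DESeq2 1.42.0, limma-voom and limma 3.58.1 on the log10 table, other scaling, filters, libraries and blocks. The crossed block and the minimum of 10 counts were added after seeing the data. Coordinates, exon lengths and overlaps came from GENCODE 29. Intervals on counts cover counting error only.

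The ligands and lists were chosen with earlier results of these data known. All ligands are named, with listed genes that changed most, had the most counts or bear on a result, overlapping genes and LGALS9 copies. HAVCR2, CD160, IGSF11, CD163 and B3GNT3 have few counts. Some results that the rule allows are not reported here.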

Additional observations from a re-analysis of the deposited data

How the results depend on the processing

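Over the alternatives, 633 values of the 6 tested ligands in 6 comparisons were recomputed: 557 kept their sign and side of the threshold, 28 lost the call, 33 gained it and 15 changed sign. Of 165 counts of calls, 134 stayed within 1.5 times. The ligands past the test with romidepsin fell from 2 to 1 when low counts were not filtered, when the fit held just its own libraries, beyond a log2 fold change of 1.5, and when the minimum was set at 5 CPM on average, which removed CD274. They fell from 4 to 2 with quisinostat under library size alone or limma on the log CPM table, and to 1 beyond 1.5, and rose from 1 to 2 with mivebresib under DESeq2. Calls over the other lists with romidepsin fell from 27 to 16 with only its libraries. Leaving out 1 library gave 1 to 4 ligands for romidepsin, 2 to 5 for quisinostat and 1 to 3 for mivebresib against control, 1 to 3 for quisinostat against romidepsin, 3 to 5 for mivebresib against quisinostat and 3 to 4 for mivebresib against romidepsin. List calls then ran from 14 to 44, 32 to 52 and 28 to 46 for romidepsin, quisinostat and mivebresib. Where an arm had 1 library left, it was assumed to vary like the others. The cause of these changes was not tested.

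The sign turned for CD276 with quisinostat (0.18 on the log CPM table, 0.16 with library size alone, 0.09 with upper-quartile factors, 0.06 with the 5 CPM minimum, and -0.29 to 0.24 with 1 library left out). With 1 library left out it turned for CD47 with mivebresib (-0.04 to 0.26), for LGALS9 with mivebresib (-2.75 to 0.26), for CD274 between quisinostat and romidepsin (-0.17 to 0.45) and for PVR between mivebresib and romidepsin (-0.1 to 0.09). LGALS9 turned between quisinostat and romidepsin (0.00 on the log CPM table, 0.01 with library size alone, -0.24 to 0.02 with 1 library left out). None of these 15 passed the test in the fit of all libraries.

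Deviations of same-numbered libraries correlated weakly, at -0.16, -0.12 and -0.07 for pairs with romidepsin and at 0.15, 0.16 and 0.06 for the others. Whether the replicate numbers pair the samples is not settled by these values. With a replicate block, 2, 4 and 1 ligands passed with romidepsin, quisinostat and mivebresib, and 25, 45 and 41 listed genes did, against 27, 43 and 43 without it. A crossed replicate block swapped the romidepsin replicate numbers and was added after seeing the data. With it, 4, 4 and 2 ligands passed and 34, 48 and 50 listed genes did, which is no independent evidence for these calls.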
